A study of Drosophila melanogaster with 3 samples.

Results

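Of 30000 peaks that the authors called on pooled Dek chromatin immunoprecipitation sequencing (ChIP-seq) data from fly embryos, 33 had their summit in pericentric heterochromatin or on arm 4. They were chosen by position alone. The pericentric regions were 2L beyond position 22000000, 3L beyond 22900000, 3R before 4200000 and X beyond 22400000, in dm6 coordinates, and arm 4 was taken whole. By region, 12 peaks lay on arm 4, 18 on X, 2 on 3R, 1 on 3L and 0 on 2L. The remaining 29967 pooled peaks served for comparison and are called the rest. The embryos were whole *Drosophila melanogaster* embryos of both sexes, 0 to 24 h old. They came from 1 transgenic line that stably makes Dek with GFP fused at the C terminus, and the chromatin was precipitated with an antibody against GFP. There were 3 biological replicates, all of 1 group, and neither an input library nor an untagged line was among the samples. The line's promoter and its endogenous Dek are not described in the labels, and the many cell types of the embryo were measured together.

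Dek is a conserved nuclear protein that binds chromatin and acts as a histone chaperone, in flies also as a coactivator of the ecdysone receptor. In mammals it has been linked to HP1 and to the upkeep of heterochromatin. Pericentric heterochromatin is the repeat-rich DNA on either side of a centromere, packed by HP1a on histone H3 methylated at lysine 9, and it holds few genes. Arm 4 is also rich in HP1a and repeats and is covered by the protein POF, but many of its genes are active.

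A peak list exists for each replicate, for the pooled alignments, and for the pooled peaks kept by the authors after a threshold on the irreproducible discovery rate (IDR). The replicate and pooled lists held exactly 30000 peaks each, which looks like a limit on length. Weak peaks with a high q value fill the end of each. The IDR list was the 4736 strongest pooled peaks. Peak signal and q value are the authors' own, the signal in an unstated unit, so lists were compared by place, where place 1 is the strongest peak. The 4736 strongest peaks of each replicate, as many as the IDR list holds, are called its strongest peaks. Read counts were not analysed here, so depth is unknown, and the 95% exact Clopper-Pearson intervals cover counting error only. Intervals over peaks treat neighbouring peaks as independent, so they are too narrow where peaks cluster. Replicate 1 stood apart on arm 4, with 2 peaks there, against 46 in replicate 2 and 21 in replicate 3, and values are also given without it below.

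The sequences at the strongest peaks of each region are shown because so few places in these regions carried a peak. Each is the plus strand of the RefSeq copy of Release 6 (dm6), the summit with 50 bases to each side. Capitals mark the motif GAGAG on X and, at RpS3A, the motif TATAAA and then the motif CGATA, both on the minus strand. The first 4 are on arm 4 and in the IDR list, as is the fifth, on X.
lgs-nearest peak, chr4:424773-424873: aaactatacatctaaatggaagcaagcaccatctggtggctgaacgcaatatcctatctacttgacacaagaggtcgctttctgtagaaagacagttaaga
RpS3A promoter, chr4:67241-67341: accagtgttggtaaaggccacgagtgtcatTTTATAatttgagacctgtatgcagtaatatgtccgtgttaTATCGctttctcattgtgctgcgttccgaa
zfh2 upstream, chr4:497863-497963: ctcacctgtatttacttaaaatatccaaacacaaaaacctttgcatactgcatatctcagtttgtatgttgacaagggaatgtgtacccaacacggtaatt
Asator upstream, chr4:489475-489575: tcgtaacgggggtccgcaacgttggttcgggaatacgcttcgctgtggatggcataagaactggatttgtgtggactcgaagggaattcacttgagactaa
l(1)G0196, chrX:22488418-22488518: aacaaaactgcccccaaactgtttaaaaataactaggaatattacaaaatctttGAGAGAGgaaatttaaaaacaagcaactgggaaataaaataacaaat
3R intergenic, chr3R:4052841-4052941: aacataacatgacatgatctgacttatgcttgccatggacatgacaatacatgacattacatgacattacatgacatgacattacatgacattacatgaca
3L upstream of Mes2, chr3L:22940994-22941094: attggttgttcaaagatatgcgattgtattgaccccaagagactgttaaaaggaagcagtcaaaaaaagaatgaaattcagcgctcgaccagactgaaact

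The regions made up 13.3 Mb, or 9.92% of the sequence of the 6 arms without N bases, but held 0.110% of the pooled peaks (95% interval 0.0757 to 0.154). That is 2.49 peaks per Mb in the regions, against 249 per Mb in the rest. The peak share was 0.0111 times the share of length in the pooled list and 0.0106 times in the IDR list. Among the strongest peaks of replicates 1, 2 and 3 the ratio was 0.0149, 0.0319 and 0.0192. All 3 replicates lay far below a ratio of 1, by a mean of −5.58 ± 0.56 on the log2 scale (SD, n = 3, exact two-sided sign-flip test, p = 0.25, the smallest that 3 replicates allow). The mean ratio was 0.0220 ± 0.00886 over the 3 replicates and 0.0255 ± 0.00903 without replicate 1 (SD, n = 2).

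The regions also differ from the rest in what they hold. They have 15.9 protein-coding genes per Mb, against 114 in the rest. Positions that start a 50-mer found once in the genome, to which a read of that length can be assigned, make up 51.6% of the regions and 92.7% of the rest. Transposons cover 16.3% of the regions and 4.79% of the rest. The density was therefore also set against the shares of genes and of unique sequence, while the part of transposons was not tested. The regions' share of transcription start sites (TSSs) of protein-coding genes is 1.77% and their share of unique 50-mers is 5.78%. The mean ratio over the replicates was 0.123 ± 0.0496 against TSSs and 0.0378 ± 0.0152 against unique 50-mers (SD, n = 3), so it was below 1 on each scale. On arm 4, 86.7% of positions are unique and there are 60.1 protein-coding genes per Mb. In the full pooled list the arm held 9.01 peaks per Mb, and the unique 50-mer ratio there was 0.0410. In the IDR list, which is shorter, that ratio was 0.0867. Among the strongest peaks of replicates 1, 2 and 3, as many as in the IDR list, it was 0, 0.282 and 0.173. Its size on arm 4 therefore depends on the list. Against TSSs the ratio of these strongest peaks on arm 4 was 0, 0.372 and 0.229. On X, where 60.6% of positions are unique, there were 15.8 pooled peaks per Mb and the pooled unique 50-mer ratio was 0.103. Among the strongest peaks of replicates 1, 2 and 3 this X ratio was 0.109, 0.0724 and 0.0362.

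**Figure D1:**
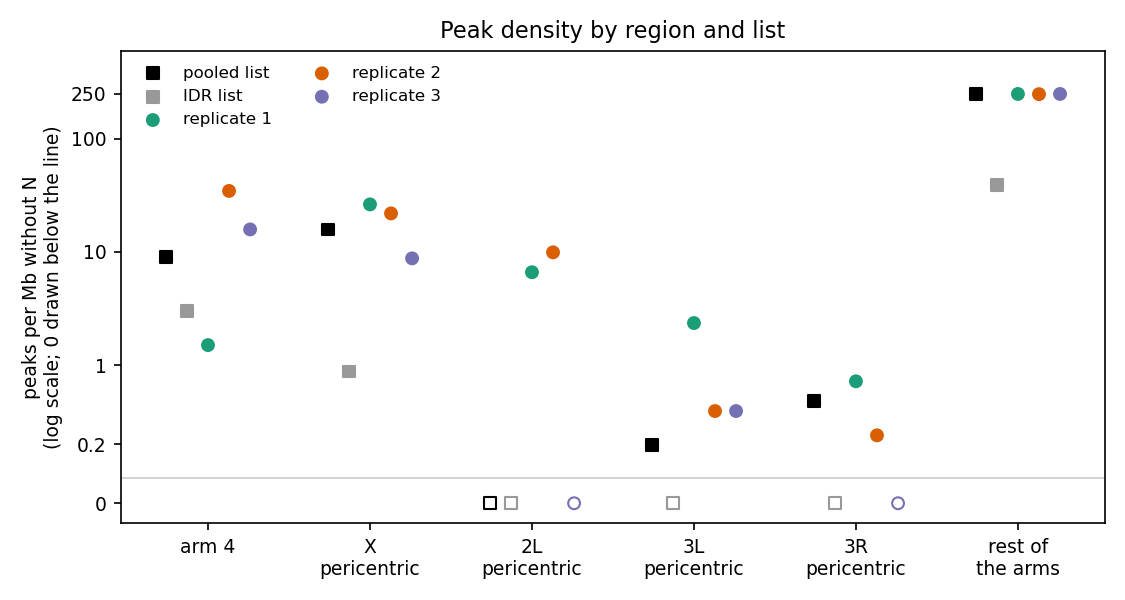
Peaks per Mb of sequence without N, on a log scale with 0 drawn below the line, for arm 4, each pericentric region and the rest of the arms. Squares are the pooled and IDR lists and circles the full lists of replicates 1 to 3. The pooled list has 9.01 peaks per Mb on arm 4 and 15.8 on pericentric X, against 249 in the rest, and the order of the regions changes between replicates.

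The drop in peaks fell close to the boundaries on 3L and 3R. On 3L, the first 250 kb inside the boundary held 1 pooled peak and the last 250 kb outside it held 42. On 3R these counts were 2 and 32. From the outer to the inner of these bins, protein-coding TSSs went from 60 to 15 on 3L and from 65 to 9 on 3R. Unique positions went from 89.3% to 81.1% on 3L and from 87.1% to 60.4% on 3R. The part of genes and of unique sequence in the drop was not tested. Single peaks illustrate the edge. On 3L the nearest pooled peak inside lay 41043 bp from the boundary with a signal of 67.1, and the nearest outside lay 9.36 kb away with a signal of 44.1. On 3R the nearest inside was 147 kb away with a signal of 40.8 and the nearest outside 14.3 kb away with a signal of 248. Beyond the innermost pooled peak, 5.17 Mb of 3L and 4.05 Mb of 3R held none up to the end of the assembled arm.

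On 2L and X the edge lay elsewhere. The last pooled peak of 2L stood 205 kb before the boundary, with a signal of 1041, one of the stronger signals of the list, whose median was 67.0. The last 1.72 Mb of 2L held no pooled peak. On X, peaks stopped 766 kb before the boundary and began again 43.5 kb inside it. The 809 kb between these peaks compares with a longest gap of 183 kb on X outside the pericentric region. Inside that region, no pooled peak lay between the summits at 22488468 and 22833718, which is also a longer stretch. In the 3 bins of 250 kb inside that gap, 17.1%, 19.7% and 7.48% of positions were unique. In the first 3 bins inside the boundary, which held the 18 peaks of pericentric X, the share of unique positions was 82.0%, 90.8% and 63.2%. The part of unique sequence in this pattern was not tested.

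The replicates did not share 1 edge. Replicate 1 had 10 peaks on pericentric 2L and 12 on pericentric 3L, and its innermost summits lay 1314 kb and 3114 kb past the boundaries. Replicate 2 had 15 on 2L, all within the first 250 kb, and 2 on 3L. Replicate 3 had 0 on 2L and 2 on 3L. On 3R the counts were 3, 1 and 0 in replicates 1, 2 and 3, and on X they were 30, 25 and 10.

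**Figure D2:**
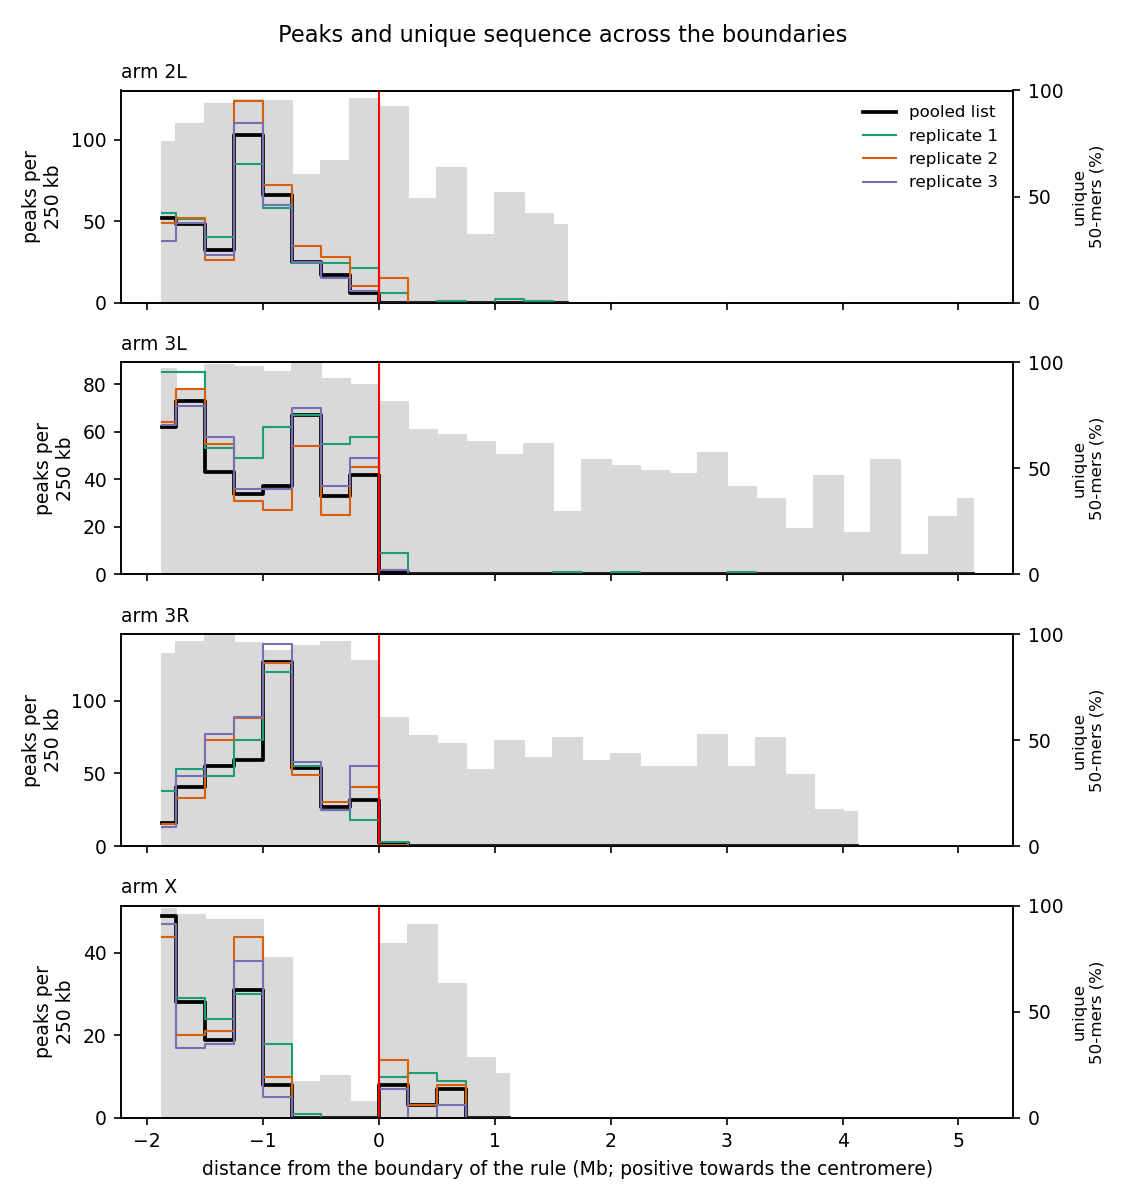
Peaks per 250 kb (lines, left axes) and percent of positions that start a unique 50-mer (grey, right axes) against distance in Mb from the boundary of each pericentric region, positive towards the centromere. In the pooled list peaks end close to the boundary on 3L and 3R and before it on 2L, and on X they stop 766 kb before it, over sequence with few unique positions, and return inside.

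Of the 33 peaks, 5 were in the IDR list, or 15.2% (95% interval 5.11 to 31.9), where 15.8% of all pooled peaks were. The interval holds that background share. By region, 4 of 12 on arm 4 and 1 of 18 on X were in it, and none of the 3 on 3L and 3R. Of the 33, 26 had a −log10 q below 2, which is a q value above 1%, or 78.8%, against 75.0% of the rest. The median signal was 70.4 in the regions and 67.0 in the rest. Ranked within each replicate's full list, the median percentile of the regions' own peaks was 49.2, 56.7 and 69.7 in replicates 1, 2 and 3, and the rest lay at the middle of each list by construction. The mean difference, regions minus rest, of 8.54 ± 10.4 points was within the spread between replicates (SD, n = 3, exact two-sided sign-flip test, p = 0.5). It was 13.2 ± 9.24 without replicate 1, 9.48 ± 14.5 without replicate 2 and 2.95 ± 5.27 without replicate 3 (SD, n = 2 each).

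The strongest of the 33 lay on arm 4, in intergenic DNA. Its summit at 424823 had a signal of 527, place 758 of the pooled list. It was in place 652 of replicate 2 and place 719 of replicate 3, and was not in the list of replicate 1. The nearest TSS of any gene was that of lncRNA:CR43437, 1244 bp away, and the nearest protein-coding one was that of lgs, 19088 bp away. lgs (chr4:436957-443911, minus strand) encodes legless, a coactivator in Wingless signalling.

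The second lay at the promoter of RpS3A (chr4:65225-67207, minus strand), which encodes a protein of the small ribosomal subunit. Its summit at 67291 was 84 bp upstream of the TSS, with a signal of 371 and pooled place 1418. The places were 1486 in replicate 2 and 1094 in replicate 3, and replicate 1 had no peak there. A weaker neighbour at 68766, with a signal of 104, lay 560 bp upstream of pan (chr4:69326-114270, plus strand), which encodes the TCF protein of the Wingless pathway. It stood at place 7495 in replicate 2 and 2865 in replicate 3, and again replicate 1 lacked it.

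The other arm 4 peaks in the IDR list stood beside Asator and zfh2. Asator (chr4:469409-488994, minus strand) encodes a tau-tubulin kinase relative, and zfh2 (chr4:501810-540874, plus strand) a transcription factor with zinc fingers and homeodomains. The Asator peak at 489525, 531 bp upstream of the TSS, had a signal of 264 and places 1797 and 2842 in replicates 2 and 3. The zfh2 peak at 497913, 3897 bp upstream, had a signal of 340 and places 1210 and 941. Neither was in replicate 1.

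Weak peaks surrounded both, so that 8 of the 12 arm 4 peaks lay between 487740 and 498676. Near Asator there were 5 within 3450 bp, and the 4 outside the IDR list had signals from 45.4 to 77.1. Near zfh2 there were 3 within 1524 bp, with signals of 44.7 and 42.7 beside the strong one. The peak at 491190 was the only arm 4 member in the list of replicate 1, at place 21768. The last arm 4 member, at 980577, lay 2088 bp upstream of fuss, a gene of the Ski and Sno family, with a signal of 61.9. It was in replicate 2 alone, at place 17077.

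On X, the IDR member was the peak at 22488468, inside l(1)G0196 (chrX:22487180-22508129, plus strand), which encodes an inositol phosphate kinase. It lay 1288 bp from the nearest TSS and also in an exon of lncRNA:CR43493, which runs on the opposite strand. Its signal was 245, and its places were 2571, 2242 and 5642 in replicates 1, 2 and 3. All 3 replicates had it, but replicate 3 not among its strongest peaks. Weaker peaks at 22487324 and 22487896 had signals of 65.1 and 41.4.

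The next strongest on X were outside the IDR list. The peak at 23004957, 309 bp upstream of the dicistronic stnA and stnB (chrX:22980722-23004648, minus strand), which encode the stoned proteins of synaptic vesicle recycling, had a signal of 160. Its pooled place of 4914 was just past the length of the IDR list. It was in places 9483, 7670 and 3399 of replicates 1, 2 and 3. The peak at 22833718, 135 bp from the TSS of mir-2491 and inside CG42346 and fog, had a signal of 144. It stood at place 5837 in replicate 1 and 15421 in replicate 2, and replicate 3 did not list it. fog (chrX:22824317-22855194, minus strand) encodes the secreted signal that drives cell shape change in gastrulation.

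The remaining X peaks sat in small groups. A run of 6 from 23007620 to 23013510, with signals from 47.1 to 102, spanned asRNA:CR45009, FucTC, Rab21 and Coa7. FucTC encodes a fucosyltransferase, Rab21 a small GTPase of endosomes, and Coa7 a factor for cytochrome oxidase assembly. Its last pair, at 23013309 and 23013510, overlapped at the promoters of the divergent Rab21 and Coa7 and matched the same peak in each replicate. A run of 4 from 22479631 to 22482064, with signals from 40.9 to 84.5, lay in CG12576 and at the shared promoter with Cp110, a centriole gene. Single peaks lay 690 bp upstream of CG14621 (signal 104) and 433 bp upstream of fog at 22855627 (signal 45.2). The peak in an intron of fog at 22834499 (signal 49.4) lay 781 bp from the one at 22833718.

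The autosomal pericentric peaks were weak. Both peaks of 3R, at 4052891 and 4053096, overlapped and matched 1 peak in replicate 1 (place 8422) and 1 in replicate 2 (place 10096), and replicate 3 had none. Their signals were 66.5 and 40.8, and the nearest gene, CG42402, began 25048 bp from the stronger summit. The stronger summit sits in the repeat that the printed 3R sequence shows, and 76.1% and 90.5% of positions around the summits were unique. The 3L peak at 22941044, 4613 bp upstream of Mes2, had a signal of 67.1, and stood at place 13488 in replicate 1 and 14775 in replicate 3. Taken by distance, the 33 peaks formed 14 groups with neighbouring summits within 2500 bp, so they are not 33 separate places.

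By replicate, the full list of replicate 1 held 17 of the 33 peaks, where it held 59.4% of all pooled peaks. Replicate 2 held 25, with a background of 67.5%, and replicate 3 held 19, with a background of 60.0%. All 3 lists held 4 of the 33, or 12.1% (95% interval 3.40 to 28.2), against a background of 28.5%. These 4 lay on X, at 22488468, 23004957, 23013309 and 23013510. At least 2 lists held 24, or 72.7%, against 64.4% of the rest. Only 1 list held 9, or 27.3%, with a background of 29.5%, and 0 peaks were in none, with a background of 6.07%. Of the peaks whose lists are not given above, those at 487740, 488782 and 498676 on arm 4 and 22487324 on X were in replicates 2 and 3. On X, those at 22443537, 22479631, 22480962, 23007620 and 23010785 were in replicates 1 and 2, and that at 22487896 in replicates 1 and 3. Replicate 1 alone held 22834499 and 23009589 on X. Replicate 2 alone held 497152 on arm 4, and 22855627 and 23012022 on X. Replicate 3 alone held 490309 on arm 4, and 22481244 and 22482064 on X. Since the pooled list was made from the same alignments, these shares describe the lists and test nothing.

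Replicate 1 differed by region. It held 1 of the 12 arm 4 peaks, while replicates 2 and 3 each held 10. On X the counts were 13, 13 and 8 of 18 in replicates 1, 2 and 3. Replicates 2 and 3 together shared 13 of the 33, replicates 1 and 2 shared 12, and replicates 1 and 3 shared 7. No share over all pooled peaks was computed for these pairs, so the counts cannot be set against a background. Among the strongest peaks of all 3 replicates there were 0 of the 33, with a background of 7.90%. Of the 12 arm 4 peaks, 4 were among the strongest of replicate 2, or 33.3% (95% interval 9.92 to 65.1), where 16.0% of all pooled peaks were. Among those of replicate 3 there were 5, or 41.7% (95% interval 15.2 to 72.3), where 15.4% of all pooled peaks were.

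**Figure D3:**
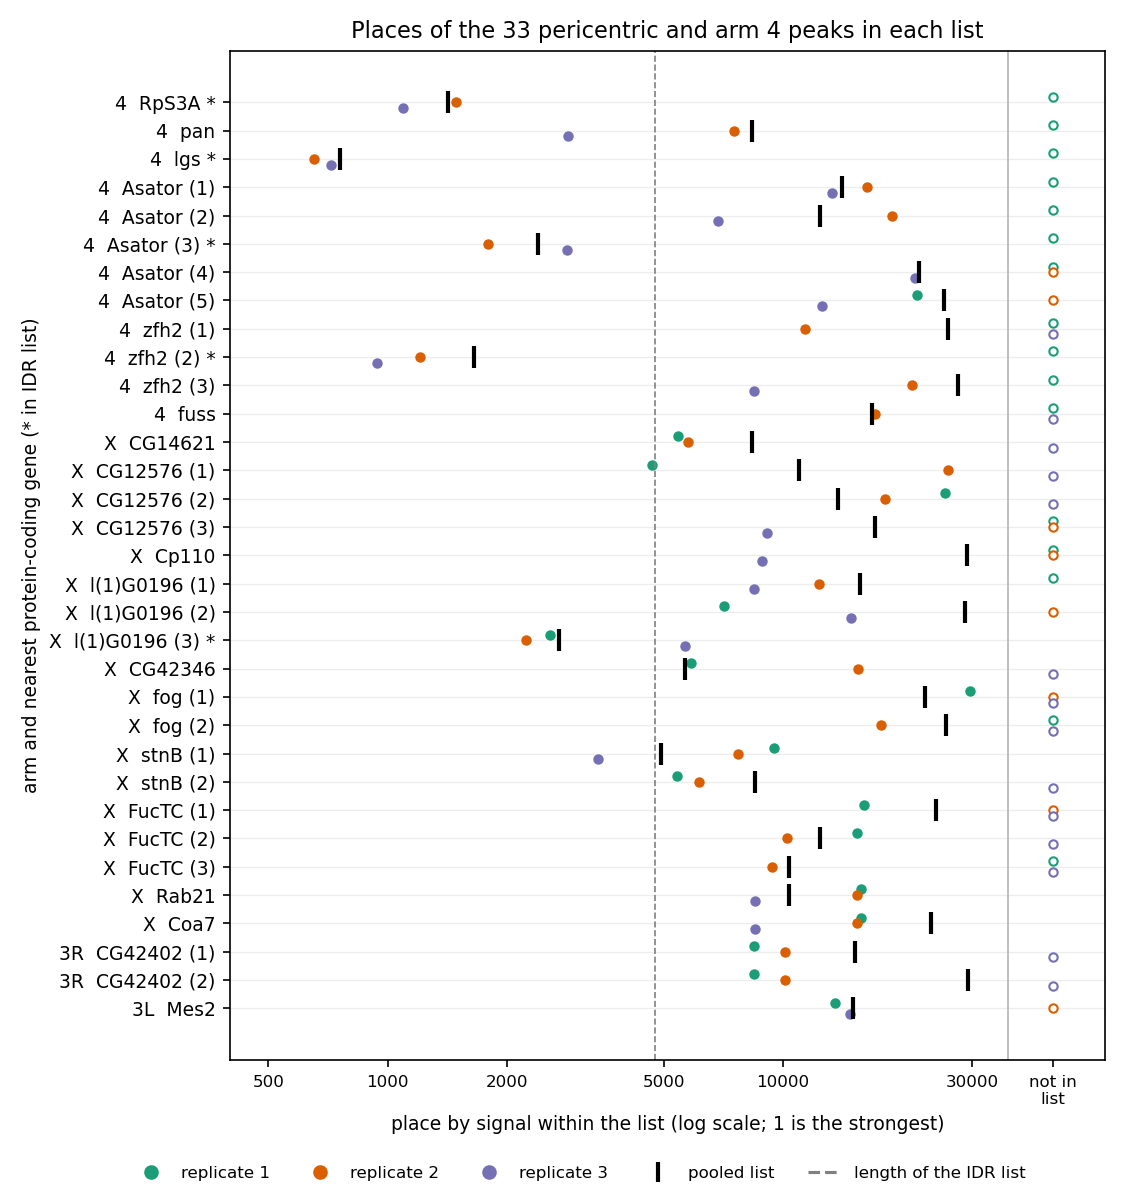
Place by signal of the 33 peaks (rows, by arm and nearest protein-coding gene, numbered along the arm, with a star for those in the IDR list) in the pooled list (black bar) and in replicates 1 to 3 (filled circles), on a log scale where 1 is the strongest. Open circles at the right mark a list without the peak. The 12 arm 4 rows have 1 filled circle for replicate 1, and the 4 starred ones stand among the first 2842 places of replicates 2 and 3.

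Each replicate also had strong peaks in these regions that the pooled list lacked. This comparison was chosen after the lists had been seen. Of the strongest peaks in the regions, 2 of 7 in replicate 1 (28.6%), 5 of 15 in replicate 2 (33.3%) and 6 of 9 in replicate 3 (66.7%) had their summit in a pooled peak. The shares over all strongest peaks were 92.9%, 95.1% and 93.7%, and those in the rest alone were 93.0%, 95.3% and 93.8%. The difference, regions minus rest, of −51.1 ± 20.9 points had the same sign in all 3 replicates (SD, n = 3, exact two-sided sign-flip test, p = 0.25, the smallest possible). Without replicate 1 it was −44.5 ± 24.6 (SD, n = 2). How the pooled list was filtered is not stated in the sources used here, and its part was not tested.

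Some of these absent peaks were found in a pair of replicates. On X, inside l(1)G0196, replicate 1 had a peak at 22491235 in place 671 and replicate 2 one at 22491180 in place 2089. On arm 4, replicates 2 and 3 both had a peak upstream of fuss, at 982981 in place 2869 and at 982969 in place 1134. Both also had one in Asator, at 486605 in place 4588 and at 486646 in place 2559.

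Others stood in 1 replicate. The strongest was in replicate 2, at 1113327 in Cals, which encodes the neuronal protein calsyntenin, at place 432. Replicate 2 also had strong promoter peaks at ey, the Pax6 gene of eye development, at Zyx, which encodes zyxin, at Pur-alpha and at pan, in places 2516, 2926, 4160 and 2633. Replicate 1 had them at RpL5 on 2L, a gene for a large ribosomal subunit protein, in place 3073, and on 3L at CG12768, CG33217 and ND-AGGG, the last a gene of respiratory complex I, in places 3920, 4047 and 4465. Replicate 3 had none on 2L, 3L or 3R.

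Few genes of these regions carried a promoter peak, taken as a summit within 500 bp of a TSS. In the pooled list 10 of 211 protein-coding genes did, or 4.74% (95% interval 2.30 to 8.54), against a background of 48.9% over all 13945 protein-coding genes and 49.6% in the rest. They were RpS3A and Asator on arm 4, and CG12576, Cp110, l(1)G0196, fog, stnA, stnB, Rab21 and Coa7 on X. In the IDR list there was 1, RpS3A, with a background of 22.8%. In replicates 1, 2 and 3 the shares were 8.06%, 14.2% and 5.21% of the regions' genes, against 45.1%, 53.2% and 50.9% of the rest. All 3 replicates were lower in the regions than in the rest. The X region came nearest to the rest, with 21.1%, 42.1% and 18.4% of its 38 genes, while 0 of 80 genes on arm 4 had one in replicate 1, 10 in replicate 2 and 4 in replicate 3.

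Among 48 named genes of arm 4, pooled promoter peaks were found at RpS3A and Asator and at no other, where 48.9% of all protein-coding genes had one. Those without one included the developmental regulators ci, ey, toy and sv, and the housekeeping genes ATPsynbeta, eIF4G1 and Rad23. Replicates 1, 2 and 3 had a promoter peak at 0, 8 and 4 of the 48, where 44.6%, 52.6% and 50.2% of all protein-coding genes had one. The genes common to replicates 2 and 3 were RpS3A, Asator, pan and zfh2. Of 21 named pericentric genes, classical heterochromatic ones such as lt, cta, RpL15, Parp and Myo81F among them, the pooled list had a promoter peak at fog alone. Replicate 1 had one at RpL5, replicate 2 at fog and replicate 3 at none, and the shares over all protein-coding genes are those given above.

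**Figure D4:**
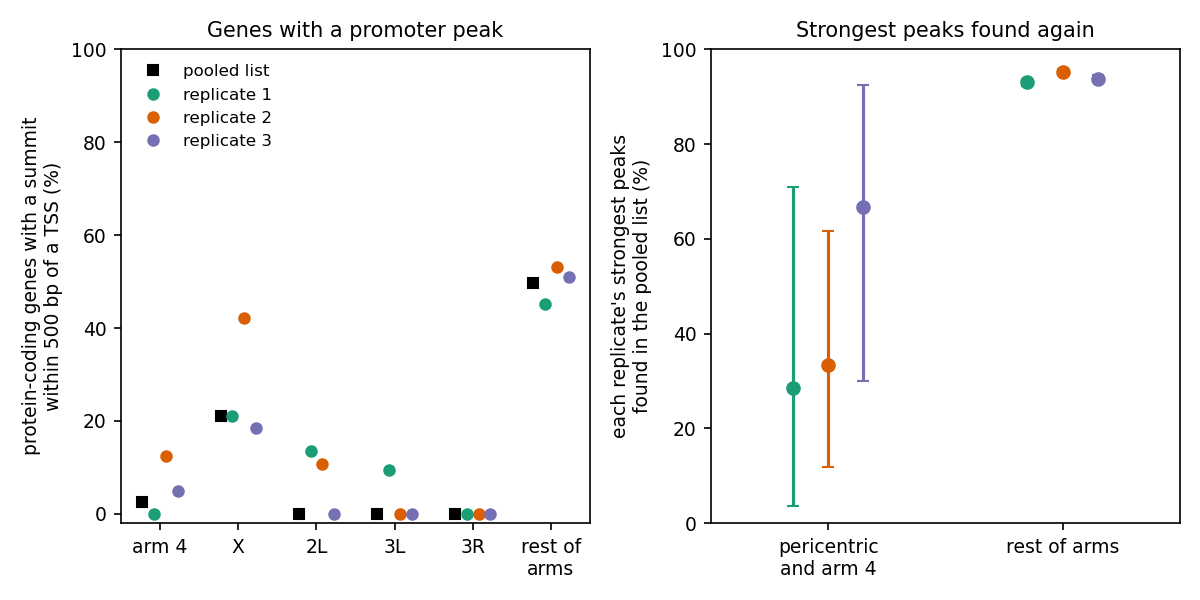
Left, percent of protein-coding genes with a summit within 500 bp of a TSS, for arm 4, the pericentric regions of X, 2L, 3L and 3R, and the rest of the arms, in the pooled list (squares) and the full replicate lists (circles). Right, percent of each replicate's strongest peaks whose summit lay in a pooled peak, for the regions and the rest, with 95% exact intervals that cover counting error only. X reaches 42.1% in replicate 2, and all values of the regions lie below those of the rest, as do the 28.6%, 33.3% and 66.7% on the right.

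At the 33 peaks, 11 summits were promoter summits, or 33.3% (95% interval 18.0 to 51.8), against 30.5% of the rest. The other summits fell into 14 intergenic, 6 intronic and 2 exonic ones of non-coding transcripts, and 0 lay in coding exons, which held 5.46% of the rest. Intergenic summits made up 42.4%, against 17.6% of the rest. The regions hold 15.9 protein-coding genes per Mb, against 114 in the rest. Their share of intergenic sequence was not measured, and its part was not tested. On X, 9 of 18 were at promoters, and on arm 4 2 of 12, with 9 of 12 intergenic. Of these 12, 8 came from the 1 stretch at Asator and zfh2, most of them intergenic. Among the strongest peaks of each replicate the promoter share in the regions was 71.4%, 40.0% and 33.3% in replicates 1, 2 and 3, against 53.7%, 58.9% and 55.0% in the rest. The sign was not the same in all, and the mean difference, regions minus rest, of −7.63 ± 22.0 points was within the spread (SD, n = 3, exact two-sided sign-flip test, p = 0.5). It was −20.3 ± 1.95 without replicate 1, −1.98 ± 27.9 without replicate 2 and −0.595 ± 26.0 without replicate 3 (SD, n = 2 each).

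Around the summits, to 100 bp on each side, GC averaged 36.8% ± 6.25 over the 33 peaks (SD over peaks) and 39.6% ± 8.97 over the rest. It was lower than in windows 500 bp to either side at 18 of 33 peaks, or 54.5%, and at 61.0% of the rest. On arm 4 it was lower at 4 of 12. The 4 arm 4 peaks in the IDR list all had more GC at the summit than beside it, a mean of 38.8% against 32.6%, while 81.6% of IDR peaks in the rest had less. The arm as a whole has 35.2% GC, against 42.5% in the rest. Over the strongest peaks of each replicate, GC at the summit was 28.1%, 35.4% and 37.4% in the regions, against 33.7%, 34.9% and 38.0% in the rest. The difference, regions minus rest, of −1.91 ± 3.24 points was within the spread (SD, n = 3, exact two-sided sign-flip test, p = 0.5). It was −0.0631 ± 0.745 without replicate 1, −3.09 ± 3.54 without replicate 2 and −2.57 ± 4.28 without replicate 3 (SD, n = 2 each).

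**Figure D5:**
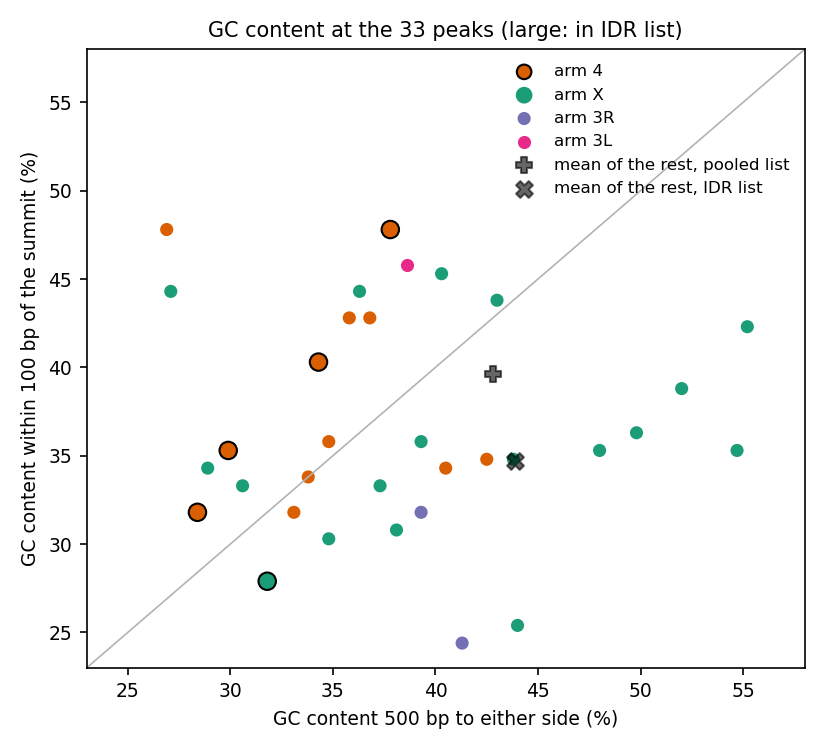
GC content within 100 bp of each of the 33 summits against that in the windows 500 bp to either side, in percent, coloured by arm, with the 5 peaks in the IDR list as large outlined circles. The cross and the plus are means over the rest of the IDR and pooled lists, and the line marks equal values. The 4 arm 4 peaks in the IDR list lie above the line, the mean of the IDR rest lies below it.

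Most of the peaks lay in unique sequence within repeat-rich regions. At 30 of 33, or 90.9%, every position within 100 bp of the summit started a unique 50-mer, against 99.4% of the rest, and at the other 3 peaks 76.1% to 92.5% of positions did. An annotated transposon overlapped the window at 5 of 33, or 15.2%, against 0.584% of the rest. At 4 of them, at 498676 and 980577 on arm 4 and at 22855627 and 23004957 on X, the summit itself lay in an INE-1 element, a short transposon that is abundant in fly heterochromatin. The fifth was the IDR peak of l(1)G0196, where 2.49% of the window was transposon. Transposons cover 25.1% of arm 4 and 21.1% of pericentric X.

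Of 6 motifs searched on both strands in windows of 201 bp, CGATA was found at 13 of 33 peaks, or 39.4%, against 23.8% of the rest and 21.4% of windows placed every 5000 bp along the arms. GAGAG was at 7 (21.2%, against 21.4% of the rest and 21.8% of those windows). TATAAA was at 10 (30.3%, against 29.6% and 21.4%). CATATG was at 2 (6.06%, against 6.50% and 5.57%). TATCGATA, which contains CGATA, and AATATAATA were at 1 each, 3.03%, against 1.83% and 1.94% of the rest and 0.561% and 1.07% of the placed windows. The peaks in the IDR list did not share 1 motif. RpS3A had CGATA and also TATAAA. The l(1)G0196 peak had GAGAG and also TATAAA. The zfh2 peak had GAGAG, and the peaks at Asator and nearest to lgs had none of the 6.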

How the data were processed

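Dek-GFP was measured by ChIP-seq in 3 biological replicates of 1 group. The authors deposited 5 narrowPeak lists on dm6. According to the deposited description files, the list of each replicate came from that replicate's alignments and 1 further file common to all, and the pooled list from all 3. The signal values used for ranking are the authors' deposited signal, in an unstated unit. The deposited −log10 q values were used for thresholds. Neither aligner and peak caller nor the cutoff behind the IDR list is given in the sources used here. The peaks, gene lists, motifs and tests were chosen with earlier results of these data known.

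A pooled peak counted as present in another list if a peak there contained its summit. Summits are counted from 1. Genes came from Ensembl release 115 and sequence from RefSeq Release 6, both in dm6 coordinates. Windows reached 100 bp to each side of a summit. A promoter summit lay within 500 bp of any annotated TSS, transposon genes left out. Unique 50-mers were counted on both strands. Differences between regions and rest were tested over the 3 replicates with exact sign-flip tests, whose p-values measure only the spread between these samples. Peaks were not used as replicates. The rest includes proximal 2R, which the rule does not take. Named peaks are those in the IDR list and the 3 strongest of each region. Others are named as members of a group or of a count, after their values were seen. The matching, the unique 50-mers and the test were tested on simulated data. Scripts ran in Python 3.11.15 with pandas 2.3.3, numpy 2.4.6 and scipy 1.17.1, and plots used matplotlib 3.10.9.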

Additional observations from a re-analysis of the deposited data

How the results depend on the processing

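The low density kept its direction under every alternative run, with mean ratios to the expected share from 0.0170 to 0.123. It was 0.0497 with the pericentric boundaries moved 200 kb towards the arms, which gave 94 pooled peaks in place of 33, 0.0189 with 22 peaks when moved towards the centromere, 0.0222 without 2R, an alternative chosen after seeing the data, and 0.0170 to 0.0255 with 1 replicate left out. The share of the 33 peaks in the IDR list became 71.4% of the 7 peaks with a −log10 q of at least 2. The IDR list is the strongest part of the pooled list, and no background share was computed at that threshold. The share in all 3 replicate lists, 12.1%, became 3.03% when a replicate summit had to lie within 100 bp. It was also 3.03% when replicate peaks needed a −log10 q of at least 2. The cause was not tested, and no background was computed under these stricter rules. With 1 replicate left out, 21.2% to 39.4% were in both others, shares for which no background was computed. The share of peaks with any of the 6 motifs was 75.8%, and 54.5% in windows of 50 bp to each side, which are shorter. For the share with any motif no background was computed either. The lower share of strongest peaks found in the pooled list, whose alternatives were also chosen after seeing the data, kept its sign, from −44.5 to −63.2 points with 1 replicate left out and −47.5 with 2368 strongest peaks. No paired analysis was possible because all samples form 1 group, so no groups share replicate numbers. Regions and rest were compared within each replicate. The regions' difference in GC was −2.86 ± 1.98 points in windows of 200 bp to each side, with 1 sign in all 3 replicates (exact sign-flip test, p = 0.25), and their difference in median percentile was 1.23 ± 4.87 points with the boundaries moved towards the arms. Depth is unknown, lists of fixed length hide differences in the number of peaks, and 3 replicates cannot give a p below 0.25.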
